A study of Mus musculus with 12 samples.

Results

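Egr1, Egr2, Egr3, Nr4a1, Nr4a2, Nr4a3, Srf and Elk1 were chosen by their symbols and make up 8 of the 24062 genes listed in the count table. They were described in polyA RNA of 12 whole mouse hearts, 3 mice in each of 4 groups. At 2 months of age the groups were WT mice and KI/KI mice, which carry the Lemd2 c.T38>G mutation on both alleles in every cell. At postnatal day 1 (P1) they were Lemd2-floxed mice, with loxP sites around the first exon, and Lemd2 cKO mice, in which these floxed alleles were deleted by Cre under the cardiomyocyte promoter of Myh6. The P1 groups therefore share the floxed allele and differ in Cre and in its recombination, the sources used here do not say whether any floxed control carried Cre, and the other cells of a cKO heart keep Lemd2.

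Immediate early genes are transcribed within minutes of a stimulus without new protein synthesis. Srf is a transcription factor that binds CArG boxes, and Elk1 is an ETS factor that joins Srf there and is switched on when the ERK kinase phosphorylates it. Egr1, Egr2 and Egr3 encode zinc finger transcription factors that are induced through Srf and Elk1 after stretch or growth factor signals. Nr4a1, Nr4a2 and Nr4a3 encode orphan nuclear receptors that are induced by cAMP and calcium signals through CREB and Mef2, and in muscle they regulate genes of glucose use. In the heart both families respond to pressure load and to beta-adrenergic stimulation.

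The promoters were read for some recognition sequences of these inducing factors beside the members. RefSeq promoter windows of GRCm38.p6 were searched in the 250 bases before the start site, on both strands, for CArG boxes and for TGACG, the core of the cAMP response element that CREB binds. Both are in capitals, and CGTCA is TGACG read from the other strand. Egr2, Srf and the Nr4a genes are shown because they hold the sites, and bases that GENCODE M21 annotates as untranslated exon were left off. Srf lies on chr17:46548329-46556175, minus strand, and the stretch shown is chr17:46556176-46556412. Egr2 lies on chr10:67535475-67542188, plus strand, and the stretch shown is chr10:67537619-67537868, inside the gene and before one of its later start sites.
Srf: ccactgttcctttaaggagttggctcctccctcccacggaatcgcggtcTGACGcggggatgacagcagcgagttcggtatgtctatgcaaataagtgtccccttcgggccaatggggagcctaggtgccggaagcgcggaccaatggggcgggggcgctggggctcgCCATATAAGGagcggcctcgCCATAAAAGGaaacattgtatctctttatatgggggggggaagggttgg
Egr2: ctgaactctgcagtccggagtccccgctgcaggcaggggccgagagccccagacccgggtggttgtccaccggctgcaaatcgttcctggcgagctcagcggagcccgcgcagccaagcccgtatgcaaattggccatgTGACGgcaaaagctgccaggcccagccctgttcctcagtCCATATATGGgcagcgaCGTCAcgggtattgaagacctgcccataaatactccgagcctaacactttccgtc

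Nr4a1 lies on chr15:101254269-101274795, plus strand, Nr4a2 on chr2:57106830-57124003, minus strand, and Nr4a3 on chr4:48045153-48086447, plus strand. The stretches shown are chr15:101266596-101266845, chr2:57124004-57124253 and chr4:48045055-48045152. That of Nr4a1 lies inside the gene, before one of its later start sites.
Nr4a1: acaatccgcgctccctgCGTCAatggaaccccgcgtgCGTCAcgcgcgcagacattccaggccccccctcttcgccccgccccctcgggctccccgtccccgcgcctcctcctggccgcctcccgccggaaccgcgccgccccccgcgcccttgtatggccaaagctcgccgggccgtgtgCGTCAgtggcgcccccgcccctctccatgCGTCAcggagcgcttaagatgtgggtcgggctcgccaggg
Nr4a2: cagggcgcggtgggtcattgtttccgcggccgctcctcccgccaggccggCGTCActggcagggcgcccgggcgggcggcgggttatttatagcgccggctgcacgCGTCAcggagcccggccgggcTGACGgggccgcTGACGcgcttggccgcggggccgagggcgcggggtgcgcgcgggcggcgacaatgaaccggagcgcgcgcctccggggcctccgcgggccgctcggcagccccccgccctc
Nr4a3: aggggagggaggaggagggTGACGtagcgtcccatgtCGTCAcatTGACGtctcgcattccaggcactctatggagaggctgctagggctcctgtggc

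The 10 windows described are those of the 6 members Egr2, Nr4a1, Nr4a2, Nr4a3, Srf and Elk1, and no window of Egr1 or Egr3 is described. The Srf window held 2 CArG boxes, 82 and 62 bases before the start site, with 1 TGACG core, and 0.0183% of 32851 windows held at least 2. The Egr2 window shown held 1 CArG box, 72 bases before the start site, and 2 TGACG cores, 111 and 55 bases before it. At least 1 CArG box was in 1.47% and at least 2 TGACG cores were in 3.90% of windows. Of the 5 Egr2 windows 4 held a CArG box, which is the same box in 3 of them because these windows overlap. Each of the 3 Nr4a windows held 4 TGACG cores and no CArG box, and 0.137% of windows held at least 4 such cores while 17.8% held at least 1. In the Nr4a3 window 3 of the 4 lie in the stretch shown. The Elk1 window held neither a CArG box nor a TGACG core. CCGGAA, a core of ETS factor sites that is not in capitals here, was once each in the Srf and Nr4a1 windows. It was matched 3 times in an Egr2 window not shown, where the matches 131 and 129 bases before the start site overlap on opposite strands. No Nr4a2, Nr4a3 or Elk1 window held it, and 12% of windows held at least 1. A match is a run of letters in a window, and binding was not measured. Egr3 lies on chr14:70077203-70082614, plus strand, and Elk1 on chrX:20933395-20950608, minus strand.

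Levels are given as CPM, the count scaled to library size with TMM factors over the 12 hearts. Library totals ran from 37063669 to 44789753 counts, so that 3 counts, taken as the floor of detection, equal at most 0.0965 CPM on this scale, counting error only, and every member was above that floor in every heart. Lemd2, the mutated gene, was at 32.0, 34.8 and 32.9 CPM in WT hearts and at 25.6, 25.2 and 24.8 CPM in KI/KI hearts. The floxed hearts had 24.3, 25.0 and 25.4 CPM of it and the cKO hearts 6.59, 13.1 and 11.4 CPM, where it fell by 1.27 on the log2 scale (SE 0.22, edgeR adjusted p = 0.0142). All 5 cardiomyocyte markers were detected in every group. In cKO replicate 4 alone Xist stood at 612 CPM and the Y-linked genes at 0.0798 CPM in sum, against 223 to 375 CPM in the other hearts. Lung epithelium markers summed to 99.4 CPM in WT replicate 3, 34.5 in KI/KI replicate 4, 25.1 and 38.4 in floxed replicates 1 and 2 and 15.8 in cKO replicate 4, and to at most 3.06 CPM in the others.

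Per kilobase of exon, Srf was the most abundant member in WT hearts (41.9 ± 1.65 CPM per kb, mean ± SD, n = 3), followed by Nr4a1 (11.2 ± 3.53), Egr1 (7.46 ± 4.75) and Elk1 (4.81 ± 0.202). Nr4a3 (1.06 ± 0.555), Egr3 (0.626 ± 0.333), Nr4a2 (0.572 ± 0.0839) and Egr2 (0.349 ± 0.0701) were lower. Neighbours in this order overlapped between hearts, except Srf with Nr4a1, Elk1 with Nr4a3 and Nr4a2 with Egr2. In cKO hearts Egr1 stood next below Srf at 24.2 ± 1.38 CPM per kb, above Nr4a1 at 10.8 ± 2.03 with no overlap. Egr2 at 2.69 ± 0.510 and Egr3 at 2.67 ± 0.326 overlapped each other and stood above Nr4a2 and Nr4a3 with no overlap.

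**Figure D1:**
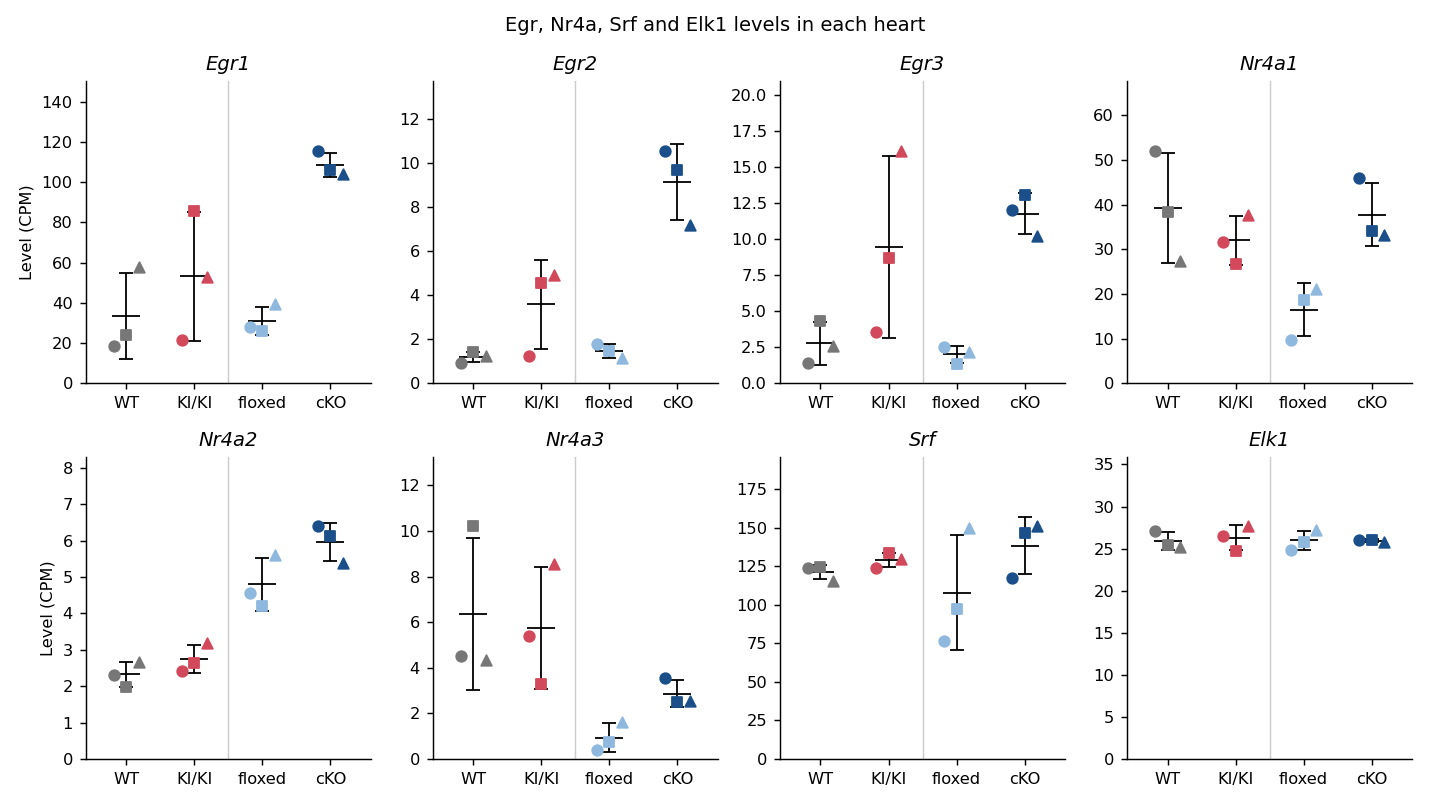
Level of each member in CPM (linear axis from 0) in every heart of the 4 groups, where circles, squares and triangles are the replicates of a group in the order of their numbers, and black bars give the mean ± SD of 3 hearts. Egr1, Egr2, Egr3, Nr4a1 and Nr4a3 in the cKO hearts lie above all floxed hearts, Egr2 and Egr3 are high in only 2 of 3 KI/KI hearts, and Elk1 lies between 24.7 and 27.6 CPM in all 12.

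The cKO hearts were compared with the floxed hearts to ask which members change when Lemd2 is deleted in cardiomyocytes. All 3 Egr genes and Nr4a1 and Nr4a3 rose, by 2.30-fold to 6.27-fold, while Nr4a2, Srf and Elk1 did not pass the test. A gene was called at an adjusted p under 0.05, by edgeR's quasi-likelihood test with adjustment over all 15317 tested genes, and a fold change above 2. By that rule 5 of the 8 members were called, all of them higher, where 4.64% of all tested genes were called in either direction and 2.85% as higher. The same 5 had groups that did not overlap, and 19.9% of all tested genes had higher, non-overlapping groups. Marker sums moved with the genotype as well. In cKO against floxed hearts they were 23076 to 25431 and 29213 to 33959 CPM for cardiomyocytes, 3133 to 3722 and 2573 to 2895 CPM for fibroblasts, 14.0 to 46.2 and 6.68 to 11.5 CPM for skeletal muscle and 7.27 to 10.1 and 11.1 to 20.3 CPM for neurons and glia, none of them overlapping. Of the 5 markers of each, 2 cardiomyocyte markers fell, 2 fibroblast markers rose, 1 skeletal muscle marker rose and 1 neuron and glia marker fell. Only 4 of the 5 skeletal muscle markers were tested. The sums of macrophage, mural and endothelial markers overlapped. Among these, 2 of 4 macrophage, 3 of 5 mural and 1 of 5 endothelial markers rose, and 1 mural marker fell. The part of all these markers in the rise of the members and of the other immediate early genes was not tested. In bulk hearts fewer cells of a type and less RNA per cell cannot be told apart.

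The 3 floxed hearts held Egr1 at 27.9, 26.0 and 39.2 CPM, and the 3 cKO hearts at 116, 106 and 104 CPM. The lowest cKO heart was far above the highest floxed heart, and the cKO hearts spread over a factor of 1.11. Egr1 rose by 1.81 on the log2 scale (SE 0.16, edgeR adjusted p = 0.00481), or 3.50-fold.

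Egr2, which in nerve drives myelination and in the heart follows hypertrophic stimuli, measured 1.78, 1.46 and 1.15 CPM in the floxed and 10.5, 9.65 and 7.19 CPM in the cKO group. It was the member with the largest fold, 6.27, with a log2 fold change of 2.65 (SE 0.24, edgeR adjusted p = 0.00481). Egr3, a close relative with a shared DNA site, measured 2.48, 1.35 and 2.20 CPM in the floxed and 12, 13.0 and 10.2 CPM in the cKO group. The groups were again apart, with a log2 fold change of 2.55 (SE 0.23, edgeR adjusted p = 0.00481).

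Nr4a1, the receptor also called Nur77, measured 9.68, 18.7 and 21 CPM in the floxed and 46.0, 34.1 and 33.2 CPM in the cKO group. The groups did not overlap, but floxed replicate 1 was well below the other floxed hearts and cKO replicate 4 above the other cKO hearts. Its log2 fold change was 1.20 (SE 0.29, edgeR adjusted p = 0.0332). Nr4a3 measured 0.406, 0.761 and 1.62 CPM in the floxed and 3.53, 2.50 and 2.55 CPM in the cKO group. The order of the floxed hearts and the high cKO heart were the same as for Nr4a1, and the log2 fold change was 1.62 (SE 0.42, edgeR adjusted p = 0.0416).

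The Nr4a1 and Nr4a3 calls were the less stable ones. Each lost its call without floxed replicate 1, floxed replicate 2, cKO replicate 4 or cKO replicate 5, where edgeR's adjusted p was 0.0717, 0.0885, 0.0645 and 0.0875 for Nr4a1 and 0.131, 0.135, 0.0827 and 0.101 for Nr4a3. With the Y-linked level as a covariate it was 0.0780 and 0.0984, and log2 fold changes stayed at 0.98 and 1.38. The Egr genes kept their calls without any single heart, with an edgeR adjusted p of at most 0.0432.

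When the 3 P1 hearts with lung markers above 10 CPM were left out, 1 floxed heart and 2 cKO hearts remained and no member was called, nor did any of the 15439 genes tested reach an edgeR adjusted p of 0.05. The lone floxed heart is then assumed to vary like the cKO hearts. The log2 fold changes of Egr1, Egr2 and Egr3 were 1.42, 2.86 and 2.40 in those hearts, each with an edgeR adjusted p of 0.472. Those of Nr4a1 and Nr4a3 were 0.67 and 0.63, less than with all hearts. The floxed heart that remained, replicate 3, was the highest floxed heart for both genes. The cKO heart left out, replicate 4, was the highest cKO heart for both. The part of the lung signal and of the choice of hearts in the smaller values was not tested.

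Nr4a2, which is best known from dopamine neurons, measured 4.56, 4.22 and 5.61 CPM in the floxed and 6.39, 6.13 and 5.37 CPM in the cKO group. The groups overlapped through floxed replicate 3 and cKO replicate 6, and the log2 fold change was 0.32 (SE 0.16, edgeR adjusted p = 0.216).

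Srf measured 76.7, 97.5 and 150 CPM in the floxed and 117, 147 and 151 CPM in the cKO group, so that floxed replicate 3 lay among the cKO hearts. Its log2 fold change was 0.36 (SE 0.23, edgeR adjusted p = 0.305), and 0.66 without floxed replicate 3 (edgeR adjusted p = 0.0442). Elk1 was between 24.9 and 27.2 CPM in floxed hearts and between 25.8 and 26.1 CPM in cKO hearts, with a log2 fold change of -0.00 (SE 0.08, edgeR adjusted p = 0.989). It shares 76 exon bases with Uxt on the same strand, and reads there may have been left uncounted or split.

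KI/KI hearts were compared with WT hearts to ask the same of the mutation in adult mice. No member passed edgeR's adjusted test, where 0.00% of 14592 tested genes were called. At an unadjusted p under 0.05 there were 2 members, Egr2 and Egr3, where 16.2% of tested genes reached that p. With DESeq2, the tool with which the authors tested genes, the same 2 were called at an adjusted p under 0.05 and more than 2-fold, where 0.806% of genes were. No member had KI/KI hearts all above the WT hearts, as 11.4% of tested genes had.

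Egr2 was at 0.933, 1.40 and 1.22 CPM in WT hearts and at 1.25, 4.55 and 4.92 CPM in KI/KI hearts. KI/KI replicate 4 lay within the WT range, and the other KI/KI hearts stood above it. The log2 fold change was 1.60 (SE 0.52, adjusted p = 0.255 in edgeR and 0.0463 in DESeq2). Without KI/KI replicate 4 it was 1.99 with an edgeR adjusted p of 0.0347.

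Egr3 was at 1.38, 4.30 and 2.58 CPM in WT hearts and at 3.55, 8.69 and 16.1 CPM in KI/KI hearts, with the same heart inside the WT range. Its log2 fold change was 1.78 (SE 0.60, adjusted p = 0.263 in edgeR and 0.0324 in DESeq2). Egr1 was at 18.5, 24.1 and 57.8 CPM in WT hearts and at 21.3, 85.4 and 52.7 CPM in KI/KI hearts. Only 1 KI/KI heart was above all WT hearts, since WT replicate 3 stood well above the other WT hearts, and the log2 fold change was 0.67 (SE 0.59, edgeR adjusted p = 0.577).

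WT replicate 3 and KI/KI replicate 4, the high WT heart and the low KI/KI heart for Egr1, were also the adult hearts with lung epithelium markers. Without these hearts the log2 fold changes were 1.71 for Egr1 (SE 0.27, edgeR adjusted p = 0.0875), 2.02 for Egr2 (0.0754) and 2.11 for Egr3 (0.123), and still no member was called. Egr1 alone ranged from 0.14 without KI/KI replicate 5 to 1.34 without WT replicate 3.

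None of the Nr4a genes passed in KI/KI hearts. Nr4a1 was at 52.0, 38.4 and 27.3 CPM in WT hearts and at 31.5, 26.8 and 37.5 CPM in KI/KI hearts, a log2 fold change of -0.29 (SE 0.23, edgeR adjusted p = 0.538). Nr4a3 was at 4.53, 10.2 and 4.35 CPM in WT hearts and at 5.39, 3.27 and 8.57 CPM in KI/KI hearts, and its log2 fold change of -0.15 (SE 0.45, edgeR adjusted p = 0.886) changed sign with 1 heart left out. Nr4a2 was at 2.32, 1.98 and 2.67 CPM in WT hearts and at 2.41, 2.64 and 3.18 CPM in KI/KI hearts, with overlapping groups and a log2 fold change of 0.24 (SE 0.19, edgeR adjusted p = 0.532).

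Srf was steady in adult hearts, between 116 and 124 CPM in WT and between 124 and 133 CPM in KI/KI, and Elk1 was between 25.1 and 27.1 CPM in WT and between 24.7 and 27.6 CPM in KI/KI. Their log2 fold changes were 0.09 (SE 0.06) and 0.03 (SE 0.07), with edgeR adjusted p of 0.421 and 0.865.

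**Figure D2:**
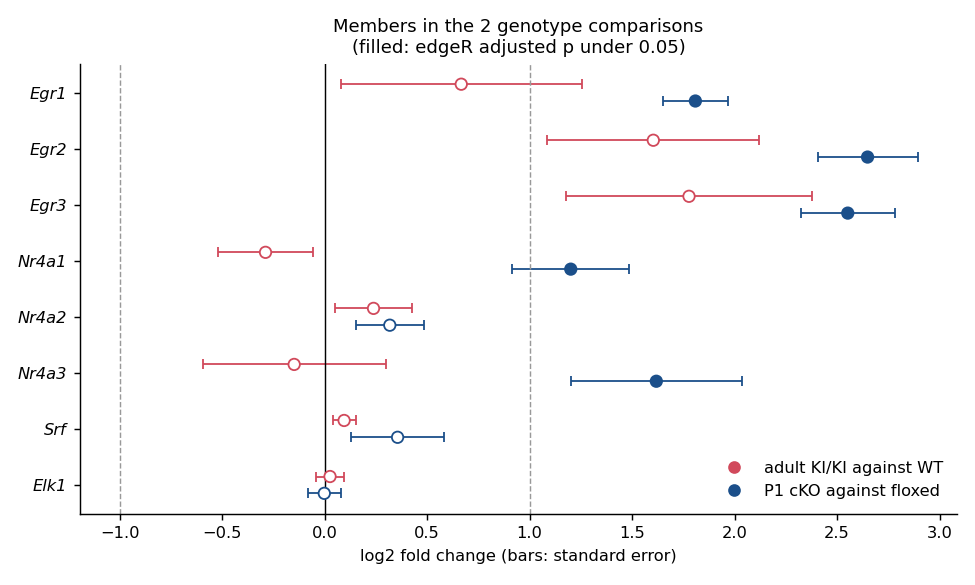
Log2 fold change of each member in KI/KI against WT and in cKO against floxed hearts (points) with its standard error (bars), where filled points have an edgeR adjusted p under 0.05 and dashed lines mark a 2-fold change. Egr1, Egr2 and Egr3 lie right of 0 in both comparisons, and Nr4a1 and Nr4a3 lie right of 0 in cKO and left of it in KI/KI.

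Whether the genotype effect differed between the models was tested as an interaction over all 12 hearts. No member passed an edgeR adjusted p of 0.05, which 2.43% of 15729 genes did, and 2 members, Nr4a1 and Nr4a3, had an unadjusted p under 0.05, as 20.0% of genes had. The cKO effect exceeded the KI/KI effect by 1.49 on the log2 scale for Nr4a1 (SE 0.40, edgeR adjusted p = 0.0752) and by 1.77 for Nr4a3 (SE 0.70, edgeR adjusted p = 0.187). For Egr1, Egr2 and Egr3 the differences were 1.14, 1.05 and 0.78, with edgeR adjusted p from 0.359 to 0.578. DESeq2 called 1 member, Nr4a1 (adjusted p = 0.00714), where it called 6.48% of genes. The models also differ in age.

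The control groups were compared to place the members at P1 and in the adult. Floxed P1 hearts had 3 members called against adult WT hearts, where 27.2% of 15183 tested genes were called. Nr4a1 was 2.35-fold lower (log2 fold change -1.24, SE 0.32, edgeR adjusted p = 0.0128), Nr4a3 was 6.70-fold lower (-2.74, SE 0.52, edgeR adjusted p = 0.00237) and Nr4a2 was 2.06-fold higher (1.05, SE 0.19, edgeR adjusted p = 0.00172). Egr1, Egr2, Egr3, Srf and Elk1 were not called. Nr4a1 was less than 2-fold apart without WT replicate 1 or floxed replicate 1 (-0.999 and -0.965) and so was Nr4a2 without WT replicate 2 or floxed replicate 3 (0.94 and 0.91), all with an edgeR adjusted p under 0.05. This comparison shares the floxed hearts with the cKO comparison, and age, allele and litter cannot be told apart in it.

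The cKO hearts at P1 had Nr4a1 within the adult WT range, at 33.2 to 46.0 CPM against 27.3 to 52.0 CPM. Their Nr4a3, at 2.50 to 3.53 CPM, lay above the floxed hearts and below the adult WT hearts. Egr1 and Egr2 in cKO hearts were above every heart of the other 3 groups, and Egr3 overlapped the KI/KI group only.

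Other immediate early genes were read from a hand-written list of 38, of which 37 were tested. In cKO hearts 21 of the 37 rose and none fell, where 9.32% of all tested genes rose and 7.57% fell, and 18 rose by more than 2-fold. The median log2 fold change was 1.05, against -0.00427 over all tested genes. Without floxed replicate 1 the 21 became 8, without cKO replicate 5 they became 13, and medians with 1 heart left out ran from 0.87 to 1.12. The anti-proliferative gene Btg2 rose from 31.3 ± 2.80 to 77.8 ± 7.33 CPM (mean ± SD, n = 3; log2 fold change 1.32, SE 0.12, edgeR adjusted p = 0.00481). Cyr61, a matricellular gene that Srf and Yap induce, rose from 33.6 ± 6.63 to 258 ± 84.2 CPM (2.95, SE 0.29, edgeR adjusted p = 0.00502).

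The stress gene Gadd45g rose from 5.86 ± 1.09 to 39.2 ± 11.8 CPM (log2 fold change 2.75, SE 0.28) and the stress factor Atf3 from 6.30 ± 2.14 to 30.9 ± 3.48 CPM (2.29, SE 0.25), with edgeR adjusted p of 0.00515 and 0.00582. Fos, the AP-1 subunit and best known immediate early gene, was named after its values were seen and rose from 3.92 ± 1.73 to 22.3 ± 4.71 CPM (2.51, SE 0.31, edgeR adjusted p = 0.00688). Jun, its partner, was at 67.0 and 77.8 CPM on average and did not pass (0.21, SE 0.12, edgeR adjusted p = 0.264).

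In KI/KI hearts 0 of the 37 passed with edgeR, 9 had an unadjusted p under 0.05, where 16.2% of all tested genes had, and the median log2 fold change was 0.05. Fos was at 7.26 ± 6.43 CPM in WT and 7.67 ± 6.22 CPM in KI/KI hearts, and Gadd45g, Atf3 and Btg2 had log2 fold changes of -0.01, 0.05 and 0.11. Myc, named after its values were seen, had 0.78 (SE 0.31, edgeR adjusted p = 0.299). The paper reports Gadd45g and Myc as raised in KI/KI hearts by RT-qPCR, which is a different measure. With DESeq2 1 of the list had an adjusted p under 0.05, as 2.66% of all genes had, and none was also above 2-fold. That gene, the calcineurin inhibitor Rcan1, was at 87.9 CPM in WT and 157 CPM in KI/KI hearts (0.84, SE 0.21, edgeR adjusted p = 0.217).

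**Figure D3:**
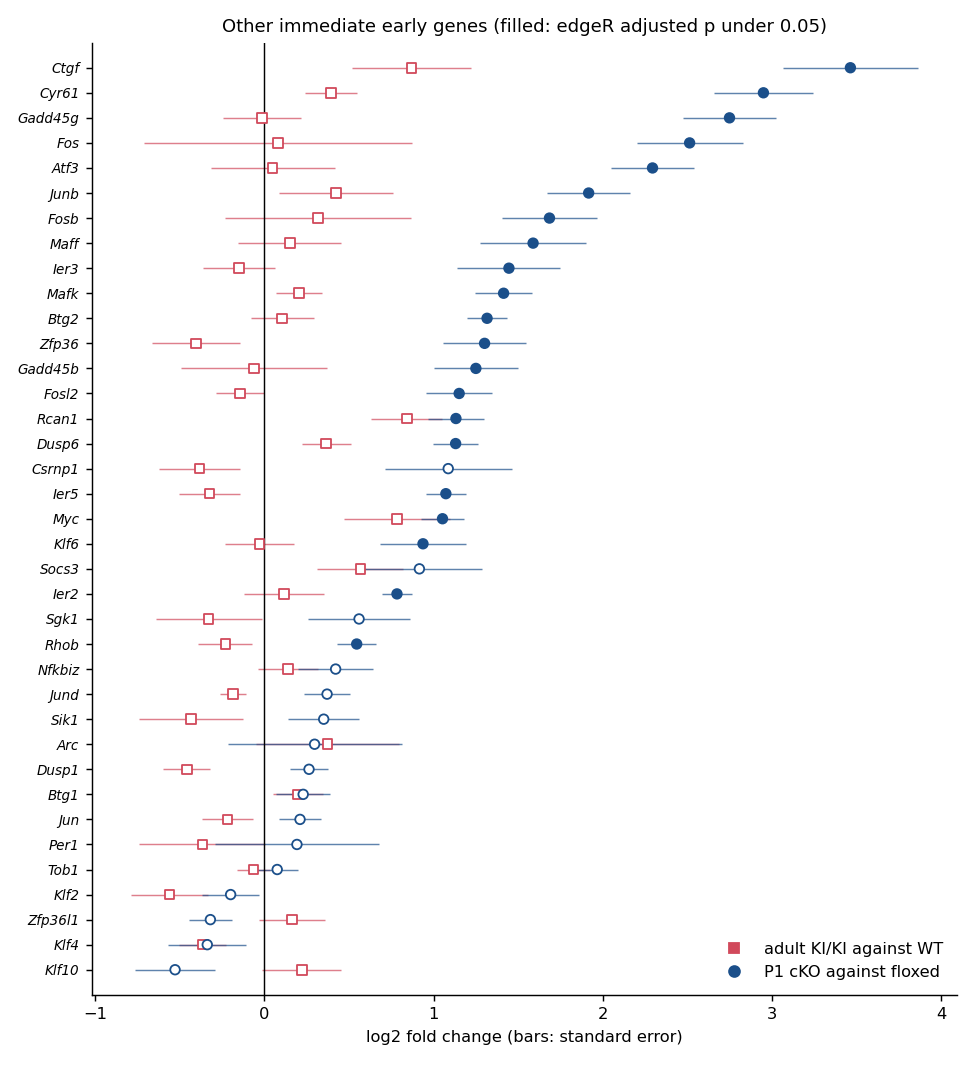
Log2 fold change of 37 other immediate early genes in cKO against floxed hearts (circles) and KI/KI against WT hearts (squares), with standard errors as bars and filled symbols for an edgeR adjusted p under 0.05. In cKO 21 genes are filled, all to the right of 0, and in KI/KI none is filled and the median is 0.05.

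Target genes were described by the factor that is known to bind them. In cKO against floxed hearts 9.32% of all tested genes rose and 7.57% fell, with a median log2 fold change of -0.00427. Of 21 Srf targets of the cytoskeleton and sarcomere 13 rose in cKO hearts and none fell, with a median log2 fold change of 0.66. They numbered 0 without floxed replicate 1, 3 without floxed replicate 2, 5 without cKO replicate 5, 8 without cKO replicate 4 and 6 with the Y-linked covariate, while the median stayed between 0.53 and 0.82. The 13 include the actin-binding genes Tagln2 (1.04, SE 0.14) and Tpm4 (0.91, SE 0.13), beta-actin Actb (0.78, SE 0.12) and the focal adhesion gene Zyx (0.80, SE 0.12), with edgeR adjusted p from 0.00730 to 0.0103. Of the 5 mural cell markers 3 rose and 1 fell in cKO hearts. They summed to 443 to 676 CPM in cKO and 443 to 463 CPM in floxed hearts, with overlap. The sums of skeletal muscle and fibroblast markers were higher in cKO hearts with no overlap. The part of all these markers in the result was not tested.

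Of 12 Egr targets 5 rose in cKO hearts, where 9.32% of all tested genes rose, and none fell. The median of the 12 was 0.64. None of them passed without floxed replicate 1, floxed replicate 2 or cKO replicate 5, and 3 did without floxed replicate 3. The matrix gene Thbs1 rose from 157 ± 27.2 to 660 ± 326 CPM (log2 fold change 2.08, SE 0.42, edgeR adjusted p = 0.0209). Ptgs2, which encodes cyclooxygenase 2, rose from 0.782 ± 0.221 to 7.71 ± 4.87 CPM (3.32, SE 0.67, edgeR adjusted p = 0.0217), and Tgfb1 rose by 0.35 (SE 0.07, edgeR adjusted p = 0.0232). Fibroblast markers summed to 3133 to 3722 CPM in cKO and 2573 to 2895 CPM in floxed hearts, and their part in this was not tested. Nab2, a co-repressor that Egr factors induce and that binds them, rose from 10.7 ± 2.29 to 22.7 ± 0.788 CPM (1.09, SE 0.16, edgeR adjusted p = 0.00926).

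Of 11 Nr4a targets of glucose use none rose and 4 fell in cKO hearts, where 7.57% of all tested genes fell. The median of the 11 was -0.45. None fell without floxed replicate 1, 1 without floxed replicate 2 or cKO replicate 5, 2 without floxed replicate 3 and 7 without cKO replicate 6. Lpin1, a phosphatidate phosphatase, had a log2 fold change of -1.18 (SE 0.17), the mitochondrial carrier Ucp3 -1.77 (SE 0.34), muscle glycogen phosphorylase Pygm -0.45 (SE 0.12) and the glucose transporter Slc2a4 -0.65 (SE 0.18), with edgeR adjusted p from 0.00869 to 0.0461. The Nr4a receptors are known to activate these genes in skeletal muscle. Nr4a1 and Nr4a3 were called higher in the same comparison, and each call held in only 2 of 6 fits with 1 heart left out. A link between the receptors and these genes was not tested. Cardiomyocyte markers summed to 23076 to 25431 CPM in cKO hearts and 29213 to 33959 CPM in floxed hearts, and their part in the fall was not tested.

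Of 12 relatives and cofactors of Srf and Elk1, 6 fell and 1 rose in cKO hearts, where 7.57% of all tested genes fell and 9.32% rose. Without floxed replicate 1 or floxed replicate 2 only 1 fell, without cKO replicate 5 there were 2, and without cKO replicate 4 there were 4. Those that fell include the muscle factors Mef2a (-0.61, SE 0.07) and Mef2d (-0.46, SE 0.07), the ETS factor Etv1 (-0.62, SE 0.11) and the cofactor Fhl2 (-0.63, SE 0.13), with edgeR adjusted p from 0.00634 to 0.0214. The 1 that rose was Mkl1, the actin-regulated partner of Srf, named after its values were seen (0.36, SE 0.09, edgeR adjusted p = 0.0432), and it did not pass with any 1 of the 6 hearts left out or with the Y-linked covariate.

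In the upstream lists the genes that passed made up about the share seen over all tested genes, where 9.32% rose and 7.57% fell. Of 20 genes of the Raf, MEK and ERK cascade 2 rose, the inhibitors Spred1 (0.58, SE 0.10) and Spred2 (0.45, SE 0.12), and 2 fell, among them the kinase Rps6ka5 (-1.09, SE 0.12), with edgeR adjusted p from 0.00543 to 0.0456 for these 3. Phosphorylation, by which the cascade acts, is not measured by RNA counts. Of 19 CREB regulators 2 rose, Camk4 and Nfatc1, and 1 fell, Nfatc2, with log2 fold changes of 0.86, 0.49 and -0.62. None of the CREB regulators passed without floxed replicate 1, floxed replicate 2 or cKO replicate 5. The 4 cascade genes became 1, without floxed replicate 1, floxed replicate 2 or cKO replicate 5, or 3, without cKO replicate 4. Of 7 tested relatives and partners of the Egr and Nr4a factors Nab2 rose and Rxrb, the shared nuclear receptor partner, fell by 0.40 on the log2 scale (edgeR adjusted p = 0.0499). Rxrb did not pass without floxed replicate 1, floxed replicate 2, cKO replicate 4 or cKO replicate 5, nor Nab2 without floxed replicate 1. When the lung marker hearts were left out of the cKO comparison, 1 floxed heart remained. The list medians were then 0.87 for other immediate early genes, 0.54 for Srf targets, 0.42 for Egr targets and -0.47 for Nr4a targets.

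With all hearts no gene of these lists passed with edgeR in KI/KI hearts, as no gene in the table did. Without the lung marker hearts 1 Srf target and 1 Egr target rose, where 18 of 14602 tested genes passed. Without KI/KI replicate 4 alone 1 of each rose, where 56 of 14814 passed. What follows is with all hearts. The median log2 fold changes were 0.16 for Srf targets, 0.30 for Egr targets and -0.23 for Nr4a targets of glucose use, and 3 of 21, 4 of 12 and 5 of 11 genes had an unadjusted p under 0.05, where 16.2% of all tested genes had. At a DESeq2 adjusted p under 0.05, which 2.66% of all genes had, there were 2 Srf targets, 2 Egr targets and no Nr4a target, and the genes of each pair went opposite ways. They were named after their values were seen. Skeletal alpha-actin Acta1 was higher (edgeR log2 fold change 2.40) and the smooth muscle gene Smtn lower (-0.22), and heme oxygenase Hmox1 was higher (0.62) and tissue factor F3 lower (-0.34). Macrophage markers summed to 217 to 240 CPM in KI/KI and 141 to 207 CPM in WT hearts. In the same order fibroblast markers summed to 1578 to 2533 and 1370 to 1568 CPM, and mural markers to 722 to 782 and 627 to 715 CPM. Cardiomyocyte markers summed to 40782 to 56529 and 56880 to 64615 CPM. The part of all these markers in the Egr2 and Egr3 levels and in the target genes was not tested.

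**Figure D4:**
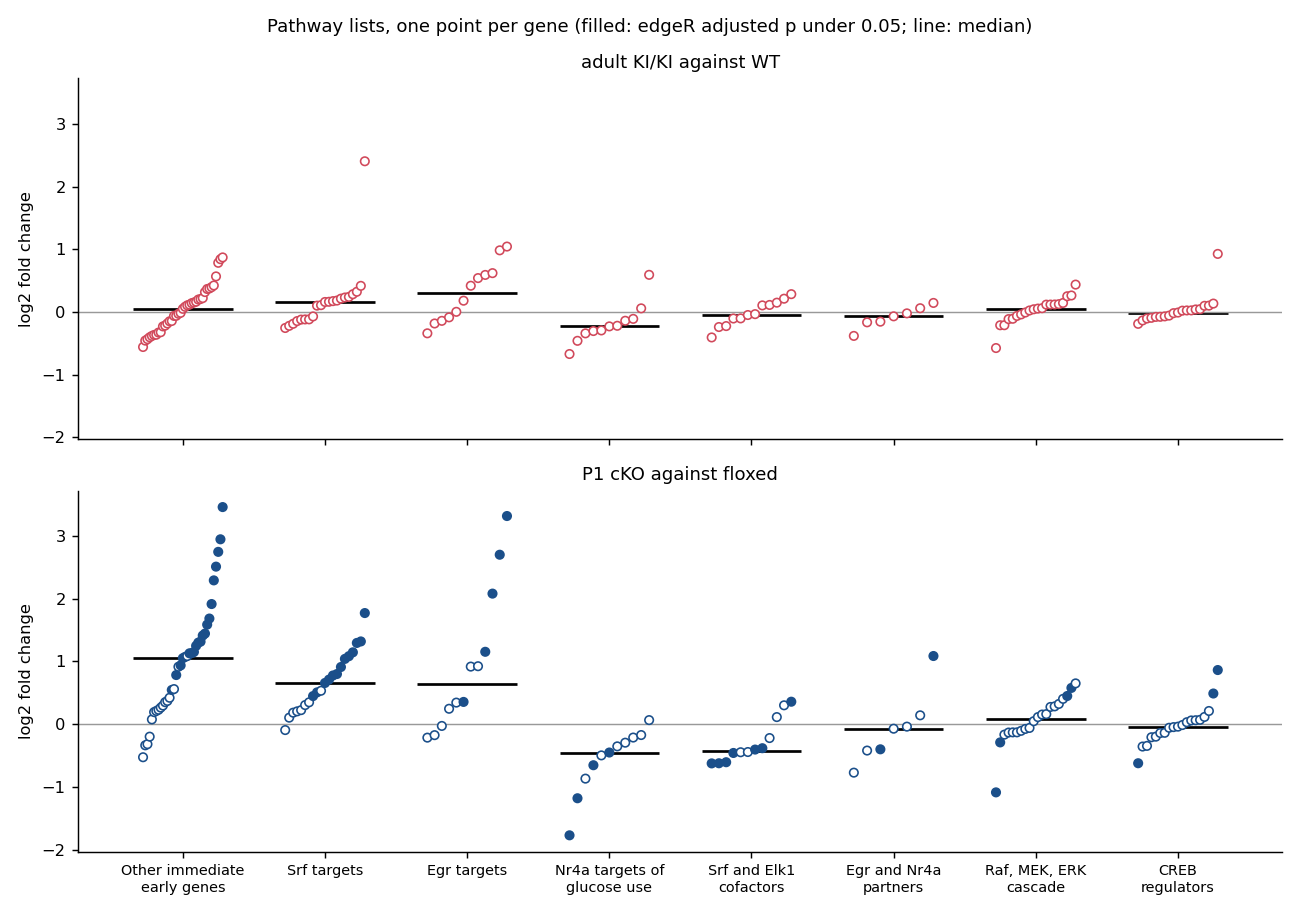
Log2 fold change of every tested gene of the 8 lists, in KI/KI against WT (upper panel) and cKO against floxed hearts (lower panel), where points are genes, filled where the edgeR adjusted p is under 0.05, and black lines are list medians. In cKO the medians are 1.05 for other immediate early genes, 0.66 for Srf targets, 0.64 for Egr targets and -0.45 for Nr4a targets of glucose use, and no point is filled in KI/KI.

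Across the 12 hearts the Egr genes followed each other. Pearson's r of log2 CPM was 0.90 for Egr2 with Egr3, 0.88 for Egr1 with Egr2 and 0.79 for Egr1 with Egr3, and after each gene was centred on its group means it was 0.81, 0.64 and 0.54. Nr4a1 and Nr4a3 had an r of 0.83 and, after centring, 0.67. Egr1 with Nr4a1 had 0.21 and, after centring, -0.31. Pairs did not keep to the families, as Egr1 with Nr4a2 had 0.58 and, after centring, 0.57. Nr4a2 had -0.24 with Nr4a1 and -0.57 with Nr4a3, and after centring 0.18 and 0.25. Nr4a1 with Elk1 had 0.44 and, after centring, 0.80. These are descriptions over hearts that share groups and libraries.

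Of 15729 genes, those most like Egr1 over 12 hearts were Taok3, Btbd19 and Stx11 (r 0.94, 0.94 and 0.93), and after centring they were Gdf15, Pxk, Phldb2, Pcbd1 and Ier2 (r from 0.92 to 0.95). Those most like Egr2 were Ifitm2, Trim47 and Plcxd2 (0.95 to 0.96) and most like Egr3 were Cars, Kctd11 and Etv5 (0.92 to 0.95). For Nr4a1 they were Txnl1, Otud1 and Tceb2 (0.93, 0.93 and 0.93), and after centring Pcnp, Vapa, Rtn4rl2, Ube2k and Rnf128 (0.89 to 0.92). Nr4a2 was most like Far1, Has2 and Mex3c (0.98 to 0.99), and Nr4a3 most like Swi5, Ipo5 and Abra (0.95 to 0.96). For Srf, with Klhdc4, Clec4f and Map2k1, the highest r was 0.90, and for Elk1, with Capza2, Ythdc2 and Rrn3, it was 0.73.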

How the data were processed

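Whole heart polyA RNA was prepared with the KAPA mRNA HyperPrep kit and read as 75-cycle single ends. Raw counts per gene symbol were deposited by the authors, who used Trim Galore, STAR 2.7.2b with mm10, and HTSeq, and tested genes with DESeq2. The strand setting of the counting is not given in the sources used here. From these counts edgeR 4.0.16 (in R 4.3.3) fitted every comparison to the 6 libraries of its groups, and the interaction to all 12, with TMM factors, filterByExpr, the robust quasi-likelihood test and Benjamini-Hochberg adjustment over all tested genes. A standard error is the absolute log2 fold change divided by the root of F. Each library is 1 mouse, so p-values measure the spread between mice. Alternatives were DESeq2 1.42.0, limma-voom (limma 3.58.1), RLE size factors, other count filters, a fit of all libraries together, other dispersion settings, a Y-linked covariate and left-out libraries. Correlations used log2 CPM with a prior count of 2. The scripts were tested on simulated data.

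The members and lists were chosen with earlier results of these data known. All 8 members are named, and from each list up to 4 genes with the smallest p among those past an adjusted p of 0.05 in the cKO comparison; others were named after their values were seen, and 2 list genes are not reported here. Symbols were matched to GENCODE M21 (GRCm38), where 94.4% had a single gene. Sequences of Egr1 and Egr3 are not shown.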

Additional observations from a re-analysis of the deposited data

How the results depend on the processing

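The Egr1, Egr2 and Egr3 calls in cKO hearts held with every alternative except in the hearts left after those with lung markers were removed. Of the 5 members called there, 3 were called with the Y-linked covariate and 3 to 5 with 1 heart left out, and without the lung marker hearts, chosen after seeing the data and leaving 1 floxed heart, the counts were 0 members and 0 other immediate early genes. With 1 heart left out the other immediate early genes called numbered from 8, without floxed replicate 1, to 20. The legacy dispersion, also chosen after seeing the data, gave 4 members in cKO hearts. In KI/KI hearts 2 members were called with DESeq2 and 0 to 1 with 1 heart left out, and DESeq2 called 1 member in the interaction where edgeR called 0.

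Signs turned only for values that had not passed the test. Elk1 in cKO hearts was 0.0005 with DESeq2, 0.0041 with no filter and from -0.0376 to 0.0272 with 1 heart left out. Against adult WT it was -0.0182 with DESeq2, -0.0145 with RLE size factors and from -0.0317 to 0.0452 with 1 heart left out. Its interaction was 0.0010 with DESeq2 and from -0.0591 to 0.0187 with 1 heart left out, and in KI/KI hearts it ran from -0.0102 to 0.0679. Srf in cKO hearts was -0.0156 without the lung marker hearts, and against adult WT it ran from -0.48 to 0.0391 with 1 heart left out. Nr4a3 in KI/KI hearts ran from -0.56 to 0.36, the Nr4a2 interaction from -0.0339 to 0.21 and Egr1 in floxed hearts against adult WT from -0.41 to 0.53. The causes were not tested.

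WT and floxed hearts share the replicate numbers 1, 2 and 3. Deviations from the group means correlated at -0.24, -0.29 and -0.54 between same-numbered hearts and at -0.30 to 0.44 between hearts of different number. Deviations of 3 hearts from their mean sum to 0, so these values are tied to each other. They cannot decide whether the numbers pair the hearts. With the replicate block 2 of the 3 members stayed called between floxed and WT hearts, the Nr4a1 adjusted p being 0.0579 in edgeR, and Egr1 was 0.0315. Members called numbered 2 to 3 with 1 heart left out. No paired analysis was possible for the genotype comparisons because their groups share no replicate numbers.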

Other observations

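The 3 Egr genes and the 3 Nr4a genes were also summed in each heart. The Egr genes summed to 20.8, 29.8 and 61.6 CPM in WT hearts, 26.1, 98.7 and 73.7 CPM in KI/KI hearts, 32.1, 28.8 and 42.5 CPM in floxed hearts and 138, 129 and 121 CPM in cKO hearts. The Nr4a genes summed to 58.9, 50.6 and 34.3 CPM in WT hearts, 39.3, 32.7 and 49.3 CPM in KI/KI hearts, 14.6, 23.7 and 28.3 CPM in floxed hearts and 55.9, 42.7 and 41.1 CPM in cKO hearts. KI/KI replicate 4 had the lowest Egr sum of its group, and WT replicate 3 had the highest Egr sum and the lowest Nr4a sum of its group. The sums are not scaled to gene length, so those of the 2 families are not compared with each other, and no test was run on them.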
